A study of Rattus norvegicus with 8 samples.

Results

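The genes Vegfa (ENSRNOG00000019598), Kdr (ENSRNOG00000046829), Nos3 (ENSRNOG00000009348), Vwf (ENSRNOG00000019689), Edn1 (ENSRNOG00000014361) and Ednrb (ENSRNOG00000010997) were followed in the sinoatrial node, where the heartbeat starts. They were chosen by name as genes of endothelial growth, nitric oxide and endothelin signalling, and are 6 of the 32285 gene identifiers in the deposited table. The choice was made with earlier results of these data known. All 6 had enough counts to enter the test, with 16313 genes in all. RNA came from Dahl salt-sensitive rats (SS/JrHsdMcwiCrl), an inbred strain whose blood pressure climbs when its food is rich in salt. Food with 0.4% NaCl was given to the rats of the 4 Control libraries and food with 8% NaCl to those of the 4 HFpEF libraries, in both cases for 11 weeks. HFpEF stands for heart failure with preserved ejection fraction. No group separated salt intake from hypertension or heart failure, so these cannot be told apart in any value below, and the age and sex of the rats are not given in the labels.

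Vascular endothelial growth factor A, the product of Vegfa, is the main growth and survival signal of blood vessel lining cells, and Kdr encodes VEGFR-2, the receptor tyrosine kinase through which it acts on them. The lining cells also set vessel tone. They make nitric oxide with the enzyme encoded by Nos3, which relaxes the underlying smooth muscle, and they secrete endothelin-1, the product of Edn1, which constricts it. Ednrb encodes the endothelin B receptor, which on endothelium releases nitric oxide and clears endothelin-1, and on smooth muscle contracts the vessel. Vwf encodes von Willebrand factor, a large glycoprotein stored in endothelial granules that tethers platelets and is widely used to mark endothelium.

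Total expected counts ran from 31774820 to 38889395 per library. Levels are given as normalised CPM, the counts of a gene relative to a library total scaled by TMM (trimmed mean of M-values). Kdr, Nos3 and Vwf, which mark endothelium, were detected in all 8 libraries with at least 2532 counts each. The deposited table gives identifiers without names, so markers of node cells and of other cell types were not analysed here. In RNA from whole tissue, a different number of cells of a type and a different amount of RNA per cell cannot be told apart.

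None of the 6 genes passed the threshold between the groups (0 of 6 by edgeR's quasi-likelihood test, Benjamini-Hochberg adjusted p under 0.05), where 1.94% of the 16313 tested genes did. Edn1 came nearest, with a mean 1.78-fold that of Control and an adjusted p of 0.0789 by edgeR. Unadjusted, 3 of the 6 had a p under 0.05 (Edn1, Nos3 and Vwf), all with the higher mean in HFpEF, where 11.2% of tested genes had such a p in that direction. DESeq2 called 1 of the 6, Edn1, where it called 7.65% of the tested genes, and limma-voom called 0 of the 6 (background 1.37%, or 2.78% with sample weights). The log2 fold change was above 0 in all 6 genes, as it was in 49.1% of tested genes. Its median was 0.27 over the 6 and -0.0041 over all tested genes. The 6 genes are not separate observations. They were chosen with earlier results of these data known, so their counts beside the shares of all tested genes are a description. Over the 8 libraries Edn1 and Vwf correlated at r = 0.945, and Vegfa and Kdr at r = 0.920 (Pearson, log2 CPM). Edn1 and Vwf, 2 of the 6, were higher in HFpEF with no overlap between the groups, where 6.74% of tested genes were. That order depends on the TMM scaling. HFpEF replicate 2 had 148 Edn1 and 22832 Vwf counts of 31774820 in total, and Control replicate 1 had 168 and 26421 of 35945522. Against these totals without TMM scaling, HFpEF replicate 2 lies below Control replicate 1 for both genes. Overlap was not counted under another scaling.

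**Figure D1:**
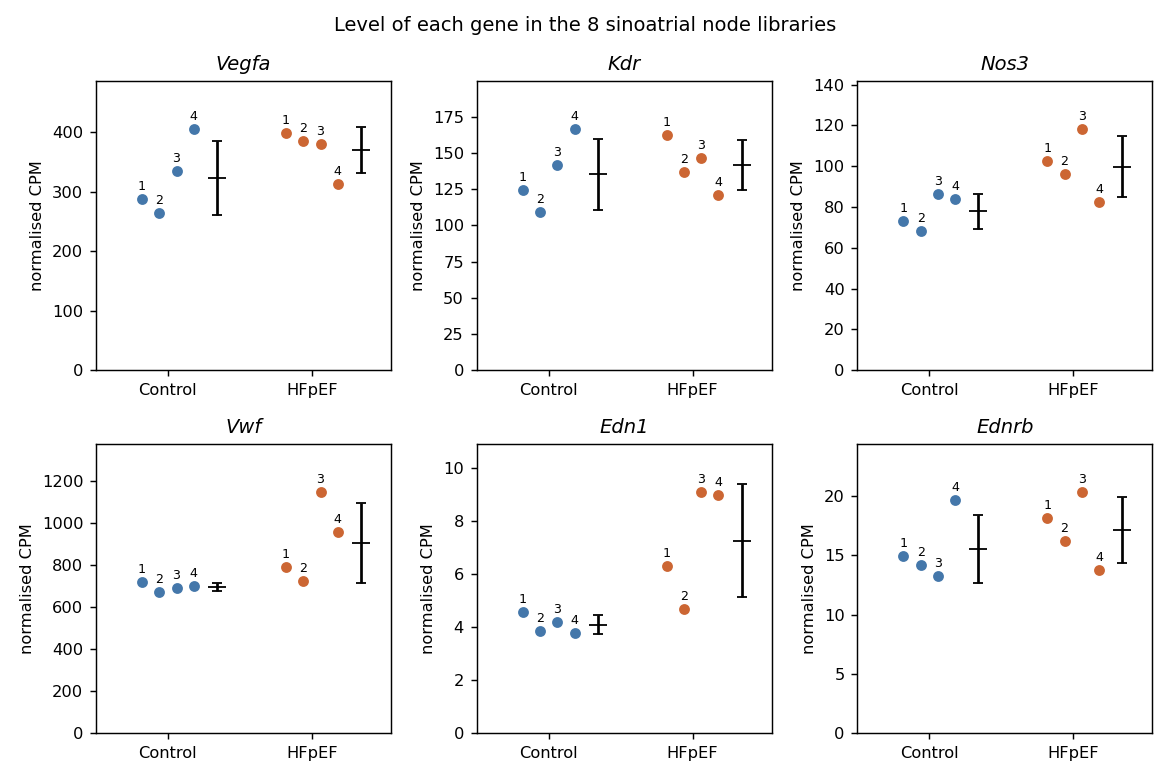
Normalised CPM (vertical axes, each from 0) of the 6 genes in the Control and HFpEF libraries; each point is a library with its replicate number, and the bar beside each group is its mean ± SD (n = 4). Edn1 and Vwf did not overlap between the groups, with HFpEF replicate 2 close to the Control libraries in both, while the other 4 genes overlapped.

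Endothelin-1 is the vasoconstrictor ligand of the set. Edn1 stood at 4.55, 3.84, 4.17 and 3.76 CPM in Control replicates 1 to 4 and at 6.28, 4.68, 9.08 and 8.96 CPM in HFpEF replicates 1 to 4. Every HFpEF library exceeded every Control library, but HFpEF replicate 2 exceeded the highest Control library only slightly, while HFpEF replicates 3 and 4 stood well above it. The means were 4.08 ± 0.359 and 7.25 ± 2.15 CPM (SD, n = 4 in each group). The fitted log2 fold change was 0.83 ± 0.21 (SE; edgeR adjusted p = 0.0789). The 95% interval of the fold ran from 1.29 to 2.46. Of all tested genes, 3.85% had a smaller p, and 95.7% had a lower log2 fold change.

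Edn1 was the least counted of the 6 genes, with 135 to 328 counts per library. Counting alone gives a spread of about 7.05% at its mean count over all 8 libraries. It is somewhat larger at the lower mean count of Control and smaller at that of HFpEF. The coefficient of variation between libraries was 8.80% in Control, close to that, and 29.6% in HFpEF. Leaving out 1 library changed the call: without HFpEF replicate 2 the log2 fold change was 0.99 and passed (edgeR adjusted p = 0.0342, with 1.13% of genes called in that fit), and over all 17 alternative fits the adjusted p ran from 0.00573 to 0.185.

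The bases upstream of 3 of these genes are shown because Edn1 and Nos3 had the smallest p of the genes with an entry and Kdr the largest. They are the 250 bases before the start of the gene in RefSeq, in the build GRCr8 (for the counts, the submitters' processing notes name rn6), printed 5′ to 3′ on the gene's own strand. Capitals mark matches, on either strand, to 5 motifs, which did not overlap one another and were chosen with these sequences in view. The TATA box was searched as TATAAA, where transcription machinery assembles. The motif of GATA factors was searched as AGATAA. The form TGATAA, whose reverse complement TTATCA is in the Nos3 window, was not searched. The motif of AP-1, a Fos and Jun dimer, was searched as TGACTNA, with any base at N, and the Edn1 match TGACTAA has A there. The core of the hypoxia response element was searched as ACGTG. The form GCGTG, which is in the Kdr window, was not searched. The GC box, a site of Sp factors, was searched as GGGCGG.
Edn1, chr17:22666688-22666937, minus strand: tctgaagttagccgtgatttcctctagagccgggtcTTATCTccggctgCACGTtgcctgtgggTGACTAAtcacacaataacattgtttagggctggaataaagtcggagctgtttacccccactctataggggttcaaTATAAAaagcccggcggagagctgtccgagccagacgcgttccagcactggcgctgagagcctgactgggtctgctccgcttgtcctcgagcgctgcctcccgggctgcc
Nos3, chr4:11706582-11706831, minus strand: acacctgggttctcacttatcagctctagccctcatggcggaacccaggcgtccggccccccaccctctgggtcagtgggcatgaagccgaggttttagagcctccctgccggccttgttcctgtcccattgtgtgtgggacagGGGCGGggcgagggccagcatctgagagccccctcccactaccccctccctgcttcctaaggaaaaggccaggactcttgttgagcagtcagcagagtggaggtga
Kdr, chr14:32571813-32572062, plus strand: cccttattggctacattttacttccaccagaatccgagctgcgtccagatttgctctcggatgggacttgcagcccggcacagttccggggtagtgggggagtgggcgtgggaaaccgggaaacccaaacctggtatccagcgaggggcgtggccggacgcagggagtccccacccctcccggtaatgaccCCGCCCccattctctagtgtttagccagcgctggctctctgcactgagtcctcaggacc

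The Edn1 window held 4 of the 5 search strings, each once. Other forms of the motifs were not searched, and the strings were chosen with these sequences in view. The number of matches in Edn1 beside that in Nos3 or Kdr is therefore not a result. The TATA box match lay 105 to 110 bases before the annotated start, the AP-1 match 180 to 186, the hypoxia core 197 to 201 and the GATA match 209 to 214. Where transcription starts in these rats was not tested, so the distances hold for the annotated start only. Of the 33469 windows in the table, 33465 had the full length and only the letters A, C, G and T. Among these 33465, 12.9% held the TATA box, 11.5% the AP-1 motif, 16.6% the hypoxia core and 10.3% the GATA motif. The Nos3 and Kdr windows each held 1 match, to the GC box, which 30.5% of those windows held. The first of the 2 windows listed for Vegfa held 3 GC boxes and 1 GATA motif, the second held 0 of the search strings, and so did the Ednrb window. A match says that these letters are present, not that a factor binds there, and the absence of one says only that these letters are not in these bases.

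For the receptor of the endothelin pair, Ednrb, the values were 14.9, 14.2, 13.3 and 19.7 CPM in Control replicates 1 to 4 and 18.2, 16.2, 20.4 and 13.8 CPM in HFpEF replicates 1 to 4. The groups overlapped, with Control replicate 4 second highest and HFpEF replicate 4 second lowest of all 8 libraries. The means were 15.5 ± 2.87 and 17.1 ± 2.80 CPM (SD, n = 4 in each group). Its log2 fold change was 0.14 ± 0.15 (SE; edgeR adjusted p = 0.643). The 95% interval of the fold, 0.872 to 1.40, includes both a fall and a rise.

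Ligand and receptor were also set against each other within each library, as Edn1 counts per 1000 Ednrb counts. The ratio holds the lengths of both transcripts, so only its difference between libraries is read. It was 305, 270, 314 and 191 in Control replicates 1 to 4 and 345, 288, 446 and 650 in HFpEF replicates 1 to 4. HFpEF replicate 2 lay within the Control range and the other 3 HFpEF libraries above it. The log2 ratio differed by 0.64 (exact two-sided permutation test, n = 4 each, p = 0.0857, adjusted p = 0.143 over the 5 ratios tested).

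Endothelial nitric oxide synthase, Nos3, stood at 73.4, 68.0, 86.2 and 83.8 CPM in Control replicates 1 to 4 and at 102, 96.0, 118 and 82.3 CPM in HFpEF replicates 1 to 4. HFpEF replicates 1 to 3 lay above every Control library, and HFpEF replicate 4 lay below Control replicates 3 and 4. The means were 77.9 ± 8.61 and 99.7 ± 14.8 CPM (SD, n = 4 in each group). The fitted log2 fold change was 0.36 ± 0.12 (SE; edgeR adjusted p = 0.148). The 95% interval of the fold ran from 1.06 to 1.54, and 9.67% of tested genes had a smaller p. Nos3 was the only gene of the 6 with non-whole expected counts, in all 8 libraries, as arises when RSEM divides reads between genes.

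Von Willebrand factor, the platelet tether, had the most counts of the 6, with 22832 to 37854 per library. Vwf stood at 715, 672, 690 and 699.7 CPM in Control replicates 1 to 4 and at 787, 722, 1146 and 955 CPM in HFpEF replicates 1 to 4. The groups did not overlap, with HFpEF replicate 2 just above Control replicate 1 and HFpEF replicates 3 and 4 well above the rest. The means were 694 ± 18.3 and 902 ± 190 CPM (SD, n = 4 in each group). The fitted log2 fold change was 0.38 ± 0.13 (SE; edgeR adjusted p = 0.165).

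The Vwf interval of the fold ran from 1.06 to 1.60. Its coefficient of variation was 2.63% in Control, the smallest of the 6 genes in either group, and 21.0% in HFpEF. Without HFpEF replicate 3, its highest library, the log2 fold change of Vwf was 0.24 (edgeR adjusted p = 0.240).

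**Figure D2:**
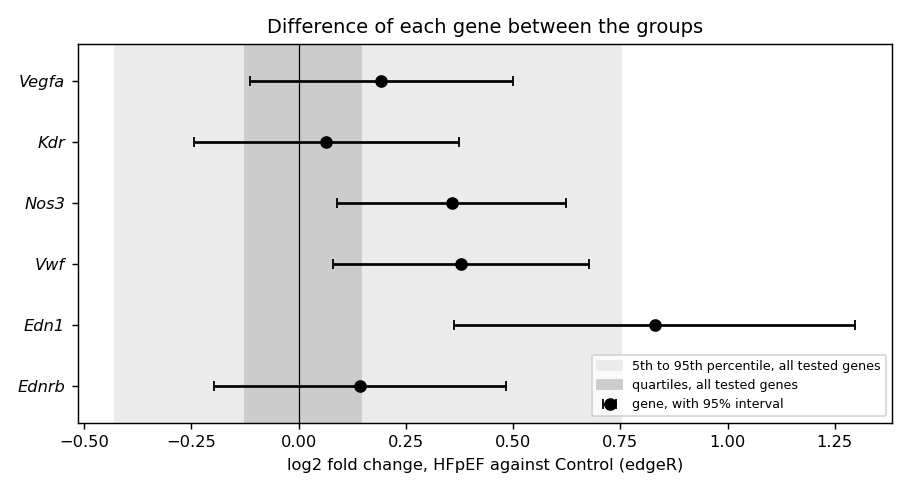
Log2 fold change of each gene, HFpEF against Control (horizontal axis, edgeR fit on 4 libraries a group), with its 95% interval; the shaded bands show the quartiles and the 5th to 95th percentiles of all tested genes. The intervals of Nos3, Vwf and Edn1 lie above 0 before adjustment for the number of genes tested, those of Vegfa, Kdr and Ednrb include 0, and the Edn1 estimate of 0.83 lies beyond the 95th percentile of 0.75.

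The growth factor Vegfa stood at 288, 265, 335 and 405 CPM in Control replicates 1 to 4 and at 399, 386, 381 and 313 CPM in HFpEF replicates 1 to 4. The highest of all 8 libraries was Control replicate 4, so no HFpEF library lay above all of Control. The means were 323 ± 61.9 and 370 ± 38.6 CPM (SD, n = 4 in each group). The fitted log2 fold change was 0.19 ± 0.14 (SE; edgeR adjusted p = 0.474). The 95% interval of the fold ran from 0.924 to 1.41. Unlike Edn1 and Vwf, Vegfa had the larger spread in Control, with a coefficient of variation of 19.1% against 10.4% in HFpEF; these differences in spread were not tested.

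Its receptor Kdr stood at 124, 109, 142 and 166 CPM in Control replicates 1 to 4 and at 162, 137, 146 and 121 CPM in HFpEF replicates 1 to 4. All 4 HFpEF libraries lay within the Control range, and Control replicate 4 was again the highest library and Control replicate 2 the lowest. The means were 135 ± 24.6 and 142 ± 17.4 CPM (SD, n = 4 in each group). Its log2 fold change was 0.07 ± 0.14 (SE; edgeR adjusted p = 0.836). The 95% interval of the fold ran from 0.845 to 1.30. Kdr was the only one of the 6 whose log2 fold change went below 0 in an alternative fit, to -0.027 without Control replicate 2 and -0.0075 without HFpEF replicate 1.

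Vegfa and Kdr shared their order at both ends: Control replicate 2 was lowest, Control replicate 4 highest and HFpEF replicate 1 second highest in both. Vegfa counts per Kdr count were 2.32, 2.43, 2.37 and 2.44 in Control replicates 1 to 4 and 2.46, 2.82, 2.60 and 2.59 in HFpEF replicates 1 to 4. Every HFpEF ratio exceeded every Control ratio, that of HFpEF replicate 1 by little. On the log2 scale the ratio averaged 1.26 ± 0.03 among Control and 1.39 ± 0.08 among HFpEF libraries (SD, n = 4 per group), so the ratio of ligand to receptor was 1.09-fold that of Control. This gave the smallest p that 4 against 4 libraries allow (exact two-sided permutation test, p = 0.0286), and did not pass after adjustment over the 5 ratios (adjusted p = 0.0714). At that smallest p no ratio can pass alone. Its adjusted p depends on how many of the 5 ratios reach it.

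**Figure D3:**
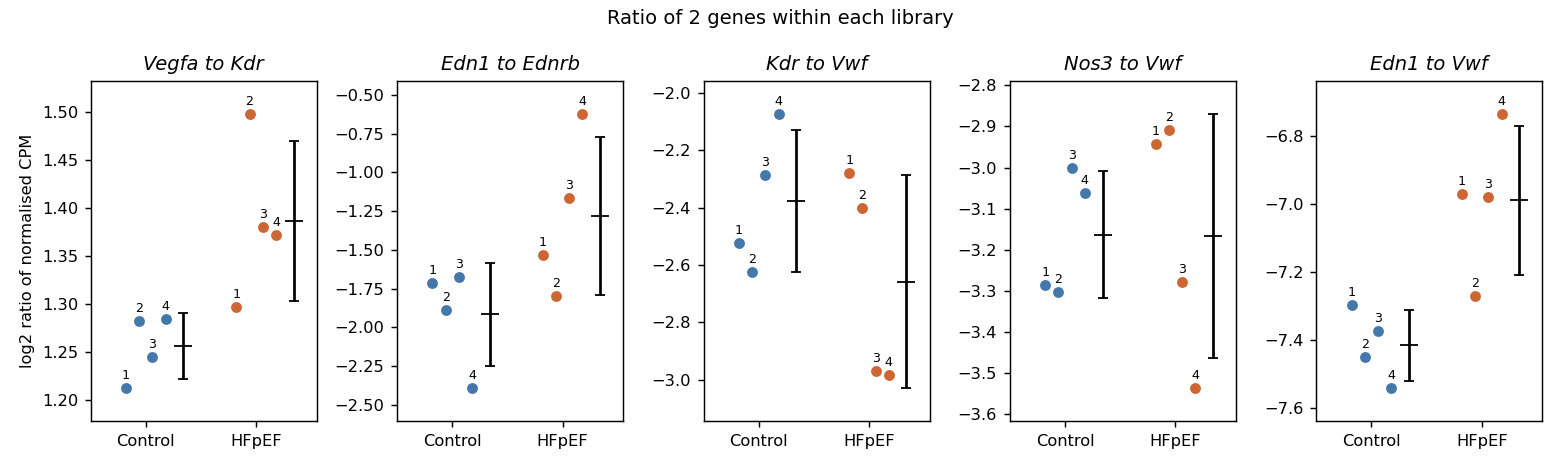
Log2 ratio of the normalised CPM of 2 genes within each library (vertical axes, each panel with its own range, not from 0); each point is a library with its replicate number, and the bars are the group mean ± SD (n = 4). Vegfa to Kdr and Edn1 to Vwf did not overlap between the groups, with adjusted p = 0.0714 for both by exact permutation, and the other 3 ratios overlapped.

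Edn1, Nos3 and Kdr were also set against the endothelial marker Vwf within each library. Vwf itself had a log2 fold change of 0.38, against 0.07 for Kdr, so these ratios are not levels per amount of endothelium. Edn1 and Nos3 were not set against Kdr. Edn1 counts per 1000 Vwf counts were 6.36, 5.72, 6.03 and 5.37 in Control replicates 1 to 4 and 7.97, 6.48, 7.93 and 9.39 in HFpEF replicates 1 to 4. All 4 HFpEF values lay above all 4 Control values, with HFpEF replicate 2 again the nearest to Control. The value of HFpEF replicate 2 exceeded that of Control replicate 1 by less than the counting spread of Edn1, about 7.05% at its mean count. The log2 ratio was higher in HFpEF by 0.43, or 1.34-fold (exact two-sided permutation test, n = 4 each, p = 0.0286, adjusted p = 0.0714 over the 5 ratios).

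Nos3 counts per 1000 Vwf counts were 103, 101, 125 and 120 in Control replicates 1 to 4 and 130, 133, 103 and 86.2 in HFpEF replicates 1 to 4. The HFpEF libraries split, with replicates 1 and 2 above and replicate 4 below every Control library. The mean log2 ratio differed by -0.0038 between the groups, with an SD of 0.15 in Control and 0.30 in HFpEF (exact two-sided permutation test, n = 4 each, p = 1.0).

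Kdr counts per 1000 Vwf counts were 174, 162, 205 and 238 in Control replicates 1 to 4 and 206, 189, 128 and 127 in HFpEF replicates 1 to 4. HFpEF replicates 3 and 4, the libraries with the most Vwf and Edn1, lay below every Control library, and HFpEF replicates 1 and 2 lay within the Control range. The log2 ratio differed by -0.28 (exact two-sided permutation test, n = 4 each, p = 0.286, adjusted p = 0.357 over the 5 ratios).

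The 4 HFpEF libraries thus differed in which of the 6 genes they held most of. Replicate 3 had the highest level of Edn1, Vwf, Nos3 and Ednrb among all 8 libraries. Replicate 4 was second highest for Edn1 and Vwf, yet lowest of the HFpEF libraries for Vegfa, Kdr, Nos3 and Ednrb. Replicate 2 was the lowest HFpEF library for Edn1 and Vwf. The labels give no blood pressure, heart function or dissection record per library to set beside these orders.

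**Figure D4:**
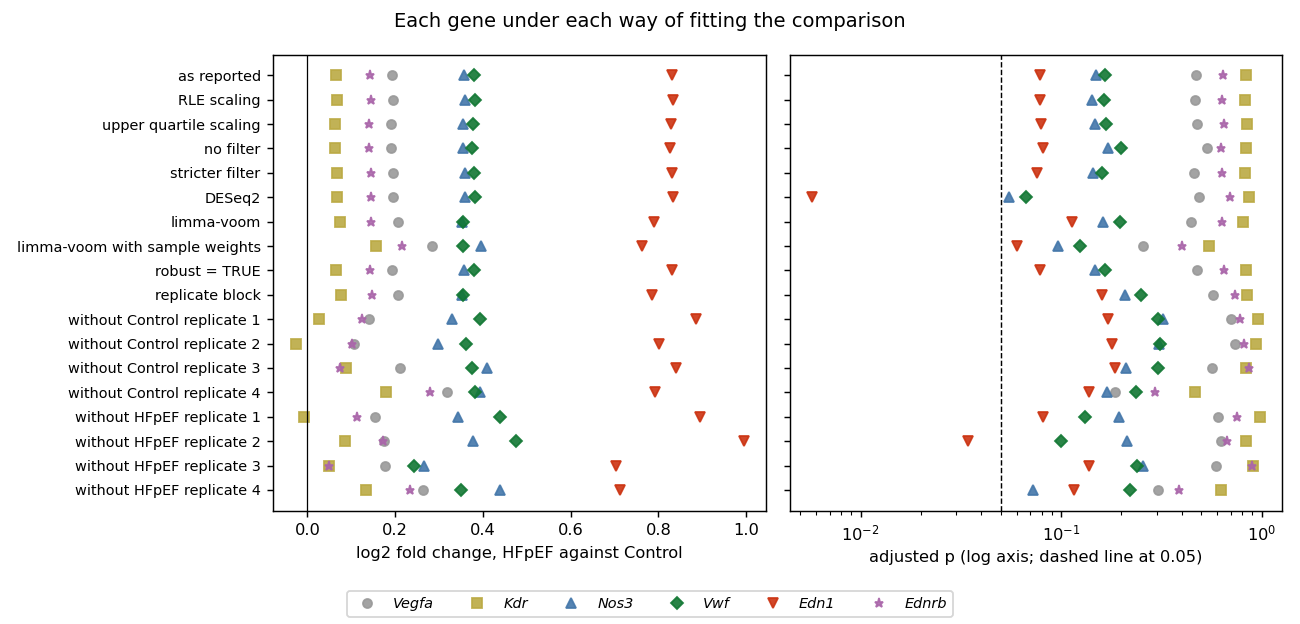
Log2 fold change (left) and adjusted p (right, log axis, dashed line at 0.05) of the 6 genes under the fit reported and 17 alternatives (rows); each symbol is a gene. Edn1 crosses the line under DESeq2 (adjusted p = 0.00573) and without HFpEF replicate 2 (adjusted p = 0.0342), and no other gene crosses it in any row.

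The libraries in which a gene was high or low were also compared with those of 14305 other genes of at least 1 mean CPM, by Pearson's r of log2 CPM over the 8 libraries, as a description. The 2 closest matches were ENSRNOG00000018691 with Vwf (r = 0.987) and ENSRNOG00000059889 with Ednrb (r = 0.985). Between 33 genes (Ednrb) and 90 genes (Vegfa) reached an r of at least 0.9, so a close match over 8 libraries singles out no gene.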

How the data were processed

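Total RNA depleted of ribosomal RNA was sequenced, per the labels' protocols. The authors deposited a table of expected counts per gene, not normalized; the submitters' processing notes name Bowtie2 2.1.0, RSEM 1.2.15 and rn6. For annotation, read filters and strandedness, settings were not given in the sources used here. The 6 genes were matched by identifier. No table paired the other identifiers with names, so lists of related pathway genes and cell type markers could not be run.

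After rounding, counts were filtered with filterByExpr, scaled by TMM and tested in edgeR 4.0.16 (R 4.3.3; quasi-likelihood, two-sided, threshold 0.05 after Benjamini-Hochberg adjustment over 16313 genes). The method was run on simulated counts drawn from the kind of model that edgeR fits. That check cannot show its error rate in these data. Standard errors came from the F statistic, and 95% intervals from those. Ratios of 2 genes were compared by exact permutation (SciPy 1.17.1). Whole counts were those within 0.005 of an integer. Other fits used DESeq2 1.42.0, limma 3.58.1 (voom, with or without sample weights), RLE or upper quartile scaling, no filter or at least 1 CPM in 4 libraries, robust = TRUE, a replicate block, and 7 of the 8 libraries; ratios were repeated with 1 CPM added. All 6 genes are named, and of the closest gene to each, at most 2. Genes, lists and tests were chosen with earlier results of these data known. Whether each library is a separate animal is not stated, so p-values and intervals reflect the spread between libraries, which may be technical.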

Additional observations from a re-analysis of the deposited data

How the results depend on the processing

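Among all tested genes 316 were called, against 1248 with DESeq2, 6 with the replicate block and 22 to 332 when a library was dropped. Of the 6 genes, DESeq2 and the fit lacking HFpEF replicate 2 called 1 each, Edn1 (log2 fold change 0.83, adjusted p = 0.00573, and 0.99, adjusted p = 0.0342), and the other 15 alternatives called 0; the cause was not tested. Dropping a library gave log2 fold changes of 0.70 to 0.99 for Edn1, 0.24 to 0.48 for Vwf, 0.27 to 0.44 for Nos3, 0.11 to 0.32 for Vegfa, 0.05 to 0.28 for Ednrb and -0.027 to 0.18 for Kdr, with Kdr at -0.027 without Control replicate 2 and -0.0075 without HFpEF replicate 1. The log2 ratio of Nos3 to Vwf then ran from -0.089 to 0.12, at 0.050 and 0.030 without Control replicates 3 and 4 and 0.033 and 0.12 without HFpEF replicates 3 and 4, while the other 4 ratios kept their sign. At 3 libraries against 4 the smallest exact p is 0.0571, and with 4 pairs 0.125, so those ratio tests could not pass.

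Libraries that share a number had deviations correlating at -0.0221, -0.0564, 0.0683 and -0.162, and 2 of 8 matched their own number best. These values show no pairing by number, and cannot exclude one. Under that replicate block Edn1 had an edgeR adjusted p of 0.160. Of the 6 genes 0 were called, where only 6 of all 16313 tested genes were, so that count says little about them. Dixon's test, which finds only extreme cases, marked 0 of 22 sets of 4 values. Precision is most limited for Edn1, with 135 to 328 counts per library.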
